A study of Xenopus tropicalis with 9 samples.

Results

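The genes described here are 4 genes of the lung surfactant system, sftpb, sftpc, abca3 and nkx2-1, in the adult frog Xenopus tropicalis. They were chosen by gene symbol, with earlier results of these data known. All 4 were found among the 30330 genes of the deposited tables. Pulmonary surfactant is a film of phospholipid and protein that lowers surface tension at the air-liquid boundary of the lung. In mammals it is made by type II alveolar cells, which store it in lamellar bodies before secretion. In mammals sftpb and sftpc encode the small hydrophobic proteins of the film, abca3 encodes the transporter that loads lipid into lamellar bodies, and nkx2-1 encodes a transcription factor of lung, thyroid and ventral forebrain that acts on the surfactant protein genes.

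Transcripts were sequenced in 9 libraries from 7 adult tissues. Head and heart were each represented by a female and a male library (n = 2 per tissue). Lung, GI tract, intestine and ovary each had 1 female library, and testes had 1 male library, so these 5 tissues have no replicate check. The labels name no strain, genotype or treatment, and do not say whether libraries came from separate animals or pools, or which segments the GI tract sample took in. Library totals ranged from 27628254 to 35044545 counts. Levels are given as TPM (transcripts per 1000000, scaled for gene length), and ratios between libraries as ratios of CPM (counts per 1000000).

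Some libraries held marker transcripts of a tissue other than the one on the label, and these are given first. Their part in the surfactant levels was not tested. Marker sums are the summed TPM of a list. The 18 oocyte markers found, such as the egg coat gene zp4, summed to 24800 TPM in ovary, 7330 in female heart, 5130 in lung, 309 in female head and 174 in GI tract. They summed to 9.4 TPM in male heart, 9.14 in male head and 2.43 in intestine, where 10 of the 18 had no count. In testes they summed to 1970 TPM, of which 1760 came from the germ cell genes dazl, ddx4 and ybx2, which testis also expresses, and 211 from the other 15. The 9 stomach markers summed to 58300 TPM in GI tract, 40600 in intestine, 24500 in testes and 1740 in female head, and to at most 70.2 in the other libraries.

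The lung label was checked against markers of its cell types. The tight junction gene cldn18, which is expressed in lung and stomach epithelium of mammals, was highest in lung at 364 TPM, followed by intestine at 176 and GI tract at 132. The epithelial list it comes from did not set lung apart. In that list krt18 and cldn7 were more abundant in lung than cldn18, at 899.54 and 410.7 TPM. They stood at 1201.3 and 404.61 TPM in female heart. Of the 16 epithelial genes, 4 were highest in lung, against 20.6% of the 22062 genes with at least 1 TPM in any library. The median log2 fold change of the list was 0.21, and it summed to 2910 TPM in lung and 4120 in GI tract. Of 12 endothelial markers, 11 were highest in lung, against the same 20.6% of genes. The 12 summed to 501 TPM in lung against 1.77 to 149 elsewhere. The red cell list summed to 35900 TPM in lung, the highest of any library, with the globin gene hbg1 at 32225. Heart muscle markers summed to 644 TPM in lung against 71200 and 110000 in the hearts.

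The gene sftpb was highest in lung. It stood there at 6436.9 TPM, rank 9 of all 30330 genes, and took 0.678% of the counts (95% Wilson interval 0.6753 to 0.6812). It stood at 26.71 TPM in GI tract, 21.67 in female heart, 11.04 in ovary, 10.28 in male heart, 9.01 in testes and 0.07 in intestine, and at 2.41 in the female and 0.61 in the male head. No other library reached 1% of the lung level: GI tract held 0.415% of it, female heart 0.337%, ovary 0.172%, male heart 0.16% and testes 0.14%. Below lung, the heart pair (16 ± 8.05 TPM, SD, n = 2) spanned the ovary value, and did not overlap the head pair (1.51 ± 1.27).

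The gene sftpc was the more abundant of the hydrophobic surfactant protein genes in lung. It stood at 15016.74 TPM, rank 3 after the globin gene hbg1 and MGC75752, and took 1.05% of the counts (95% Wilson interval 1.047 to 1.054). Elsewhere it stood at 67.28 TPM in GI tract, 45.39 in male heart, 21.52 in testes, 0.11 in female heart and 0.1 in ovary, and at 3.25 in the female and 1.19 in the male head. Intestine had no sftpc count, and a count of 0 there allows up to 3 counts, or 0.0924 CPM. The heart libraries were far apart: 1304 counts in male heart and 3 in female heart, a CPM ratio of 426 (95% interval 145 to 2070, counting error only). The heart pair (22.8 ± 32 TPM, SD, n = 2) therefore lay on either side of the head pair (2.22 ± 1.46).

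The gene nkx2-1 was also highest in lung, at a much lower level than the surfactant protein genes. It stood at 25.41 TPM in lung, rank 6687, from 1100 counts. It reached 1.13 TPM in male head, 0.54 in female head, 0.46 in testes, 0.18 in GI tract and 0.04 in each heart, and had no count in intestine or ovary. By TPM the order after lung was therefore heads, testes and GI tract. The 95% counting interval of testes (23 counts, 14.58 to 34.51) overlapped those of its neighbours in this order. These were female head (28 counts, 18.61 to 40.47) and GI tract (11 counts, 5.491 to 19.68). The heads (0.835 ± 0.417 TPM, SD, n = 2) did not overlap the hearts, which had 2 counts each. Lung exceeded male head by a CPM ratio of 21 (95% interval 15.9 to 28.3, counting error only) and female head by 41.1 (28.3 to 62.1).

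The transporter gene abca3 was not highest in lung. It stood at 10.46 TPM in male head, 8.83 in lung, 8.29 in intestine, 8.2 in female head, 7.31 in GI tract, 6.39 in testes, 4.36 in male heart, 1.8 in female heart and 0.11 in ovary. The lung value fell inside the range of the head pair (9.33 ± 1.6 TPM, SD, n = 2). The heart pair (3.08 ± 1.81) was lower and did not overlap the heads, and ovary was lowest with 21 counts. Per length, abca3 in lung was thus far below sftpb and sftpc, and also below nkx2-1.

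**Figure D1:**
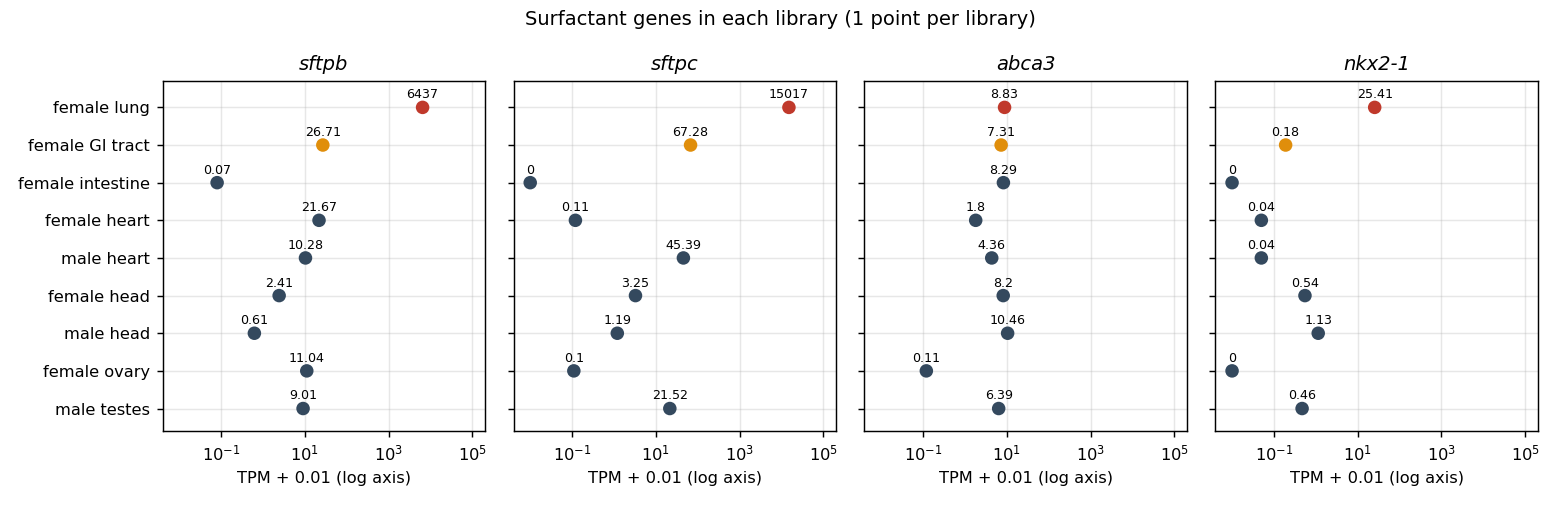
Level of each of the 4 genes in each of the 9 libraries, as TPM + 0.01 on a log axis, with 1 point per library and its TPM printed above it. Lung (red) stands far to the right for sftpb (6437), sftpc (15017) and nkx2-1 (25.41), while for abca3 its 8.83 lies among the other libraries, and GI tract is drawn in orange.

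In a bulk library, fewer cells of a type and less RNA per cell cannot be told apart. The levels above are therefore levels per library, not per cell. Of the 4 genes, 3 (sftpb, sftpc and nkx2-1) had a higher TPM in lung than in each of the other 8 libraries. The same held for 20.6% of the 22062 genes with at least 1 TPM in any library. Since the 4 were chosen with earlier results of these data known, this share is no test of them.

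The comparison of lung with the mean of the other 6 tissues asked how far lung stood above the rest. All 4 genes passed the filter on low counts. The log2 fold change was 12.24 for sftpc (SE 2.15), 9.59 for sftpb (SE 0.73), 8.49 for nkx2-1 (SE 0.74) and 0.57 for abca3 (SE 0.75). Intestine had no count of sftpc, and intestine and ovary had none of nkx2-1. The values of these genes therefore depend in part on the prior count and are no bounds. For nkx2-1 edgeR gave 7.64 without ovary in the fit, and limma on log2(TPM + 1) gave 4.44. The median of all 23090 genes tested was 0.26 with edgeR and -0.28 with DESeq2, whose scaling differs.

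None of the 4 was called by the quasi-likelihood test of edgeR, which called 0 of 23090 genes (0.00%) in this comparison. Its adjusted p was 0.626 for sftpb, 0.679 for sftpc, 0.626 for nkx2-1 and 0.946 for abca3, against a threshold of 0.05. The unadjusted edgeR p was 7.93e-05 for sftpb, 0.000145 for nkx2-1 and 0.00307 for sftpc. An unadjusted p under 0.05 was reached by 1513 genes, 5.38% of all tested in the higher direction and 1.17% in the lower. The test has 2 residual degrees of freedom, from the head and heart pairs, and assumes that lung varies like them.

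DESeq2 on the same counts called sftpb (log2 fold change 9.14, SE 0.95, adjusted p = 7.64e-18), sftpc (11.59, SE 1.89, adjusted p = 1.13e-06) and nkx2-1 (7.61, SE 1.40, adjusted p = 3.33e-05) higher in lung. It called 0.481% of 17270 genes higher and 2.33% lower. It did not call abca3 (0.09, SE 1.04, adjusted p = 0.987). With edgeR, whether sftpb, sftpc and nkx2-1 passed depended on which library supplied the spread. Leaving out a head or heart library left 1 in that tissue, so only effect sizes are given here. The log2 fold changes were then 9.48 to 9.77 for sftpb, 11.97 to 13.55 for sftpc and 8.35 to 8.56 for nkx2-1.

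With edgeR the sign for abca3 rested on ovary. Without ovary in the fit its log2 fold change in lung was -0.16, and against a reference without both gonads it was -0.35. Neither value passed the threshold. On log2(TPM + 1), limma gave 0.86 (SE 0.57) with ovary in the fit, and no fit without ovary was run on that scale.

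**Figure D2:**
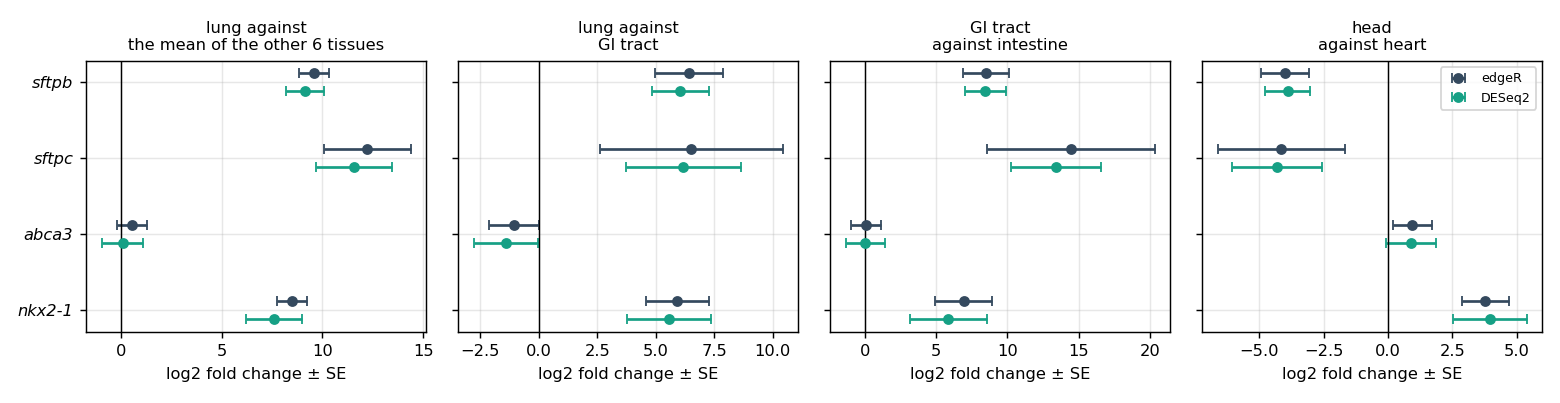
Log2 fold change with its standard error for the 4 genes in the 4 comparisons, from edgeR and from DESeq2. The edgeR error was derived from the F value and is not like that of DESeq2. In lung against the other 6 tissues sftpb, sftpc and nkx2-1 lie between 7.61 and 12.24 and abca3 lies near 0. The values of sftpc and nkx2-1 in GI tract against intestine come from an intestine library with no count and are no bounds. In lung against the other 6 tissues, the values of sftpc and nkx2-1 rest in part on libraries with no count.

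The GI tract library held surfactant transcripts that the intestine library lacked. Counts in GI tract and intestine were 1455 and 4 for sftpb, 2096 and 0 for sftpc, 11 and 0 for nkx2-1, and 1262 and 1222 for abca3. By CPM, GI tract exceeded intestine by 340 for sftpb (95% interval 133 to 1250). Set against a floor of 3 counts in intestine, the ratio was 654 for sftpc and 3.43 for nkx2-1. These ratios to the floor leave out the counting error in GI tract, so they are no lower bounds. For nkx2-1 the 11 counts there had a 95% interval of 5.491 to 19.68. For abca3 the ratio was 0.966 (0.893 to 1.05), which includes equality. These intervals cover counting error in the 2 libraries only.

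In the test of GI tract against intestine, edgeR gave log2 fold changes of 8.49 for sftpb (SE 1.62, adjusted p = 1) and 0.07 for abca3 (SE 1.05, adjusted p = 1). For sftpc and nkx2-1, which had no count in intestine, the fitted fold depends on the prior count and is no bound, and the adjusted p was also 1. It called 0 of 23090 genes (0.00%), with 231 at an unadjusted p under 0.05. DESeq2 called sftpb (8.45, SE 1.44, adjusted p = 1.2e-05) and sftpc (adjusted p = 0.0171) higher in GI tract, among 0.190% of 16822 genes, and did not call nkx2-1 or abca3 (adjusted p = 1 for both). On the log2(TPM + 1) scale, which understates low genes, limma gave 4.69 for sftpb (SE 0.94), 6.09 for sftpc (SE 3.06) and 0.24 for nkx2-1 (SE 0.30), with no call. The sign for abca3 was not stable: it was -0.01 with DESeq2 and -0.16 with limma on log2(TPM + 1), without a call in either.

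Other transcripts also differed between the gut libraries. In GI tract and intestine the oocyte markers summed to 174 and 2.43 TPM, the red cell markers to 1670 and 187, and the liver markers to 3620 and 1220, with 7 of 13 liver markers at 0 counts in intestine. The zona gene zp4 stood at 26.65 TPM in GI tract and 0 in intestine. Endothelial markers summed to 46.5 and 52.4 TPM. Heart muscle markers summed to 26.2 and 28.3 TPM, led by pln (11.7 and 20.16). Of the 13, 8 had a positive log2 fold change and 4 a negative one (median 1.27). Of all 23090 genes tested, 12452 had a positive one. The part of these transcripts in the surfactant levels was not tested.

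Other genes that were high in lung were set beside the surfactant genes in the same gut libraries. The phosphate carrier gene slc34a2, a product of type II cells in mammals, stood at 570.96 TPM in lung, 97.28 in GI tract and 32.45 in intestine. The T-box gene tbx2 stood at 57.83, 4.85 and 4.52 TPM, and the Wnt ligand gene wnt7b at 19.24, 0.30 and 0.17. The water channel gene aqp4 was at 8.36 in lung and 0.02 in both gut libraries. These genes were chosen after their values were seen. Others were taken from the genes most alike in pattern to the surfactant genes over these same libraries. A like pattern in the gut libraries was therefore partly built in. Of these, snai3 stood at 139.64, 0.6 and 0 TPM, fam162b at 88, 0.57 and 0, and pole at 48.08, 5.36 and 0.57. In GI tract and intestine, esm1 stood at 1.3 and 0.78 TPM, exoc3l1 at 2.39 and 0.74, kdrl at 1.37 and 0.76, and npr3 at 6.22 and 3.2. Likewise pcdh12 stood at 1.8 and 1.19 TPM, zbtb10 at 5.63 and 3.75, and chic1 at 5.58 and 5.18. Others of the same kind were near level or lower in GI tract than in intestine. There s1pr3 stood at 16.26, 0.58 and 0.59 TPM, dock4 at 27.6, 1.02 and 1.0, and gpr182 at 17.56, 0.2 and 0.32.

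Lung against GI tract gave CPM ratios of 174 for sftpc (95% interval 167 to 182), 162 for sftpb (154 to 170) and 115 for nkx2-1 (64.3 to 232). The 3 intervals overlapped for nkx2-1 with each of the others, and those of sftpb and sftpc overlapped as well. For abca3 the CPM ratio was 0.907 (0.834 to 0.986), whereas its TPM was higher in lung (8.83 against 7.31), so its direction depended on the scale. The edgeR test called 0 of 23090 genes (0.00%). Its log2 fold changes were 6.42 for sftpb (SE 1.45, adjusted p = 0.643) and 6.53 for sftpc (SE 3.91, adjusted p = 0.783). They were 5.92 for nkx2-1 (SE 1.35, adjusted p = 0.643) and -1.06 for abca3 (SE 1.06, adjusted p = 0.786). These are lower folds than the CPM ratios, because edgeR also scales between libraries. The intervals on the CPM ratios do not cover that choice of scaling. DESeq2 called sftpb (adjusted p = 6.59e-05) and nkx2-1 (adjusted p = 0.0377) higher in lung, among 0.182% of 18165 genes, and not sftpc (adjusted p = 0.16).

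The balance of sftpb to sftpc was alike in some libraries and not in others. Of the counts of both genes, sftpb took 39.2% in lung (exact 95% interval 39.1 to 39.4), 41% in GI tract (39.4 to 42.6) and 42.5% in testes (39.2 to 45.8). The testes interval included the lung share, and the GI tract interval began at the upper end of the lung interval. In male heart sftpb took 29.7% (27.6 to 31.8), below all 3. By TPM, sftpc exceeded sftpb by 2.33 in lung, 2.52 in GI tract, 2.39 in testes and 4.42 in male heart.

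Female heart and ovary held sftpb almost without sftpc. There sftpb took 99.6% (98.9 to 99.9) of 782 and 3 counts, and 99.5% (98.5 to 99.9) of 586 and 3 counts. By TPM, sftpb exceeded sftpc by 197 in female heart and 110 in ovary. These 2 libraries also had the highest oocyte marker sums, 7330 and 24800 TPM. Lung, with 5130, had the next highest. The part of oocyte transcripts in the sftpb level was not tested.

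The heads were intermediate, with sftpb at 52.7% in the female (44.9 to 60.4) and 49.1% in the male (35.1 to 63.2), both from few counts. In intestine all 4 counts were sftpb (39.8 to 100). Testes, whose sftpb and sftpc stood at 0.14% and 0.143% of lung, also held stomach (24500 TPM), exocrine pancreas (19800 TPM) and intestinal epithelium markers (8720 TPM). Male heart, at 0.16% and 0.302% of lung, held only 28.5, 9.79 and 6.18 TPM of those lists. The part of gut transcripts in the testes values was not tested.

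**Figure D3:**
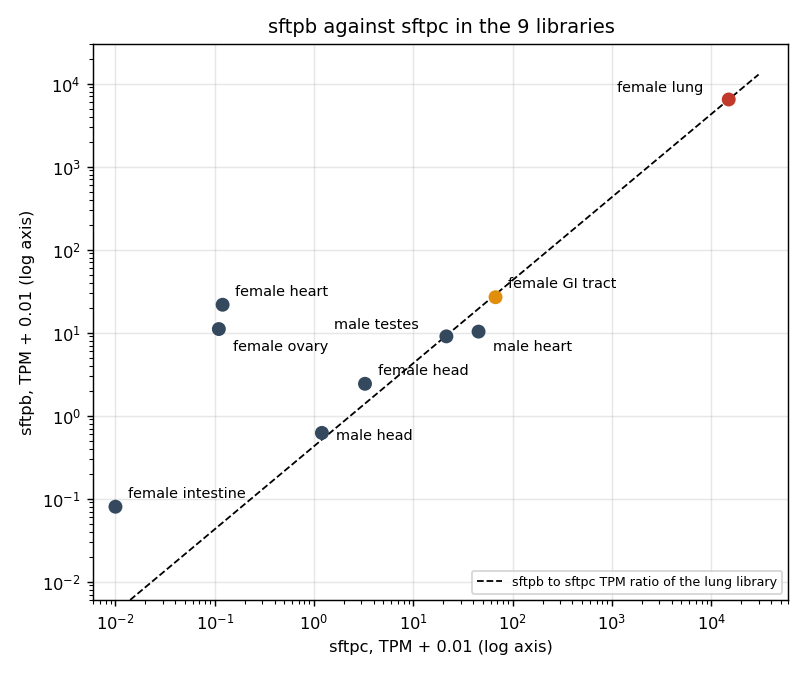
Level of sftpb against sftpc in the 9 libraries, both as TPM + 0.01 on log axes, with 1 point per library; the dashed line marks the sftpb to sftpc ratio of the lung library. GI tract (26.71 and 67.28 TPM) and testes (9.01 and 21.52) lie close to the line, while female heart (21.67 and 0.11) and ovary (11.04 and 0.1) lie far above it.

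The number of counts per TPM, which moves with the effective length assigned to a gene, was compared with that in lung. For sftpc it was 1 in GI tract, 0.999 in male heart and 1 in testes relative to lung, after scaling by 1973 reference genes. For sftpb it ranged from 0.89 in female heart to 1.24 in male heart, and was 1.16 in GI tract and 1.12 in ovary. The RefSeq gene table (UCB_Xtro_10.0) lists 1 transcript for sftpc and nkx2-1, 4 for sftpb and 3 for abca3. Whether isoforms of sftpb differed between libraries was not tested.

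Head against heart was the comparison with 2 libraries on each side. The log2 fold change for head minus heart was -4.0 for sftpb (SE 0.92, adjusted p = 0.116 with edgeR), 3.78 for nkx2-1 (SE 0.93, adjusted p = 0.127), 0.94 for abca3 (SE 0.75, adjusted p = 0.477) and -4.14 for sftpc (SE 2.47, adjusted p = 0.381). For sftpb, abca3 and nkx2-1 the pairs did not overlap, and for sftpc they did. How common such a gap between the pairs was among all genes was not counted, so it does not set these genes apart. The edgeR test called 0 of 23090 genes (0.00%), with 4941 at an unadjusted p under 0.05. DESeq2 called 15.0% of 19956 genes in either direction, sftpb (-3.90, SE 0.89, adjusted p = 0.000196) and nkx2-1 (3.96, SE 1.43, adjusted p = 0.0395) among them. With a term for sex as the block, edgeR called sftpb (-4.22, SE 1.3, adjusted p = 0.0151), and sftpc moved to -1.29 (SE 3.16, adjusted p = 0.879). That fit has only 1 residual degree of freedom.

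The male heart decided the sign for sftpc. Without it the log2 fold change turned from -4.14 to 3.69, and without the female heart it was -5.30. Of 13 thyroid markers, those that define the gland, tg and tpo, were at most 0.36 and 0.45 TPM in any library. The whole list summed to 109 and 194 TPM in the female and the male head, 147 in GI tract and 39.3 in lung. In the heads it was led by slc26a4 (36.99 and 92.38 TPM), dio1 (27.96 and 42.17) and duox2 (21.94 and 37.44). The part of thyroid in the head level of nkx2-1 was not tested.

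The other genes of the surfactant pathway were counted by role, from lists chosen with earlier results of these data known. The surfactant collectins are the soluble, sugar-binding proteins of the film. Of 5 collectins and related genes tested, the median log2 fold change in lung was 3.33. Among them 3 had an unadjusted edgeR p under 0.05 in the higher direction (5.38% of all genes), and DESeq2 called none. Of the 5 with at least 1 TPM in any library, 3 were highest in lung, against 20.6% of all genes. The gene annotated sftpa stood at 11.53 TPM in lung and 10.49 in male head, with at most 1.01 elsewhere (log2 fold change 5.61, SE 1.36 with edgeR; DESeq2 adjusted p = 0.261). The scavenger collectin gene colec12 was highest at 43.69 TPM and colec11 stood at 6.01. The collectin gene sftpd was listed at 0 TPM in lung, against 1.54 TPM in GI tract and 1.22 in testes.

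Genes that process surfactant proteins did not separate lung. Of 13 processing and saposin genes, 0 were highest in lung (20.6% of all genes) and 0 had an unadjusted edgeR p under 0.05. Their median log2 fold change was -0.08. The most abundant in lung were the chaperone genes calr (430.6 TPM), pdia3 (263.87) and hspa5 (257.05). The protease genes napsa and ctsh, which cleave the precursors of sftpb and sftpc in mammals, stood at 11.66 and 64.56 TPM in lung, and at 21.74 and 100.75 in male head.

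Genes of surfactant lipid were likewise near the median of all genes. Of 33 phospholipid synthesis genes, 5 were highest in lung and 1 was higher by unadjusted edgeR p, shares near the 20.6% and 5.38% of all genes. Their median log2 fold change was 0.30. The 1 gene was the acyltransferase gene lpcat2, at 32.68 TPM in lung (DESeq2 adjusted p = 0.299). The most abundant were the peroxiredoxin gene prdx6 (343.15 TPM), the lipid droplet gene plin2 (308.25) and the elongase gene elovl1 (251.23). DESeq2 called none of the 33.

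Of 32 lamellar body, lipid transport and secretion genes, abca3 included, the median was 0.21 and DESeq2 called none. Of the 31 with at least 1 TPM in any library, 8 were highest in lung, against 20.6% of all genes. The unadjusted edgeR p was under 0.05 for 2 of the 32, both higher, a share near the 5.38% of all genes. These were slc34a2 (log2 fold change 5.12, SE 1.28 with edgeR, DESeq2 adjusted p = 0.0632) and the lysosomal enzyme gene gusb (DESeq2 adjusted p = 0.602). The lysosomal membrane gene lamp3, a marker of lamellar bodies in mammals, stood at 80.43 TPM in lung, below GI tract (695.66) and intestine (917.3). The most abundant members were the annexin gene anxa2 (822.4 TPM in lung and 914.09 in GI tract), slc34a2 and lamp1 (224.49).

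Of 9 ABCA transporters, abca3 included, none was highest in lung, against 20.6% of all genes. The median was 0.24, and neither tool called any. After abca3, the highest in lung were abca8 at 8.27 TPM, against 22.36 in male head, and the cholesterol exporter gene abca1 at 5.57, against 13.85 in male head. The skin lipid transporter gene abca12 stood at 0.01 TPM in lung.

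Transcription factors and growth signals of lung were counted next. Of the 40 lung transcription factors with at least 1 TPM in any library, 13 were highest in lung, against 20.6% of all genes. Of 40 lung transcription factors tested, nkx2-1 included, the median log2 fold change was 1.12. By unadjusted edgeR p, 12 were higher and 2 lower, against 5.38% and 1.17% of all genes, and DESeq2 called 2 higher and 2 lower, against 0.481% and 2.33%. The DESeq2 calls were nkx2-1 and tbx2 (4.95, SE 0.88 by edgeR, DESeq2 adjusted p = 0.0386) in the higher direction, and elf3 (0.46 TPM in lung, adjusted p = 0.00295) and sox2 (0.98 TPM, adjusted p = 0.0301) in the lower. The forkhead genes foxa2 and foxa1, partners of nkx2-1 in mammalian lung, stood at 43.02 and 26.63 TPM in lung, and at 29.91 and 58.6 in intestine. The T-box gene tbx4, a gene of lung mesenchyme in mammals, stood at 0.85 TPM in lung and at 0 in the other 8 libraries.

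Of the 22 growth signals and receptors with at least 1 TPM in any library, 11 were highest in lung, against 20.6% of all genes. Of all 24 growth signals and receptors, the median was 1.14. By unadjusted edgeR p, 7 were higher and 1 lower, against 5.38% and 1.17% of all genes. DESeq2 called wnt7b higher (adjusted p = 0.0393) and fgf7 lower (0.63 TPM in lung, adjusted p = 0.0286). The most abundant in lung were vegfa (179.34 TPM), fgfr2 (114.81) and bmpr1a (113.62). The ligand gene shh, which signals from lung epithelium to mesenchyme in mammals, stood at 68.1 TPM in lung and 42.55 in intestine.

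Of 14 genes of flat alveolar (type I) cells in mammals, 6 were highest in lung, against 20.6% of all genes, with a median of 0.97. By unadjusted edgeR p, 5 were higher (5.38% of all genes) and 1 lower (1.17%), and DESeq2 called 1, gprc5a, higher (172.84 TPM in lung and 119.01 in female head, adjusted p = 0.0259). The caveolin genes cav1 and cav2, also expressed in endothelium, stood at 1480.62 and 1087.68 TPM in lung, with male heart next at 535.72 and 193.38. The type I cell gene aqp5 was listed at 0 TPM in lung, and stood at 14.99 and 18.68 TPM in the heads.

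Relatives of the surfactant genes were counted the same way. Of 11 NKX genes tested, nkx2-1 was the most abundant in lung, ahead of nkx6-1 at 4.83 TPM and nkx2-4 at 0.79. The log2 fold change was negative for 9 of the 11, of which 5 were listed at 0 TPM in lung, so that their fitted values depend on the prior count. Of all 23090 genes tested, 13115 had a positive one. DESeq2 called nkx2-1 higher and nkx6-3 lower (0 in lung and 8.69 TPM in intestine, adjusted p = 0.00601). The gene nkx2-4, a close relative of nkx2-1, ranged from 0.17 TPM in ovary to 2.51 in male head, and was higher in both heads (2.17 ± 0.481, SD, n = 2) than in lung.

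Of 6 other genes with a BRICHOS domain, the chaperone domain found in the sftpc precursor, the median was 0.18. The most abundant in lung were itm2a (1912.61 TPM) and itm2b (652.96), whose lowest values in the other libraries were 124.77 and 98.68, both in ovary. DESeq2 called the chondromodulin gene cnmd higher (46.47 TPM in lung, adjusted p = 0.00586), although female head held more (169.52). It called the stomach gene gkn1 lower (0 TPM in lung and 1717.4 in GI tract, adjusted p = 0.00489).

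**Figure D4:**
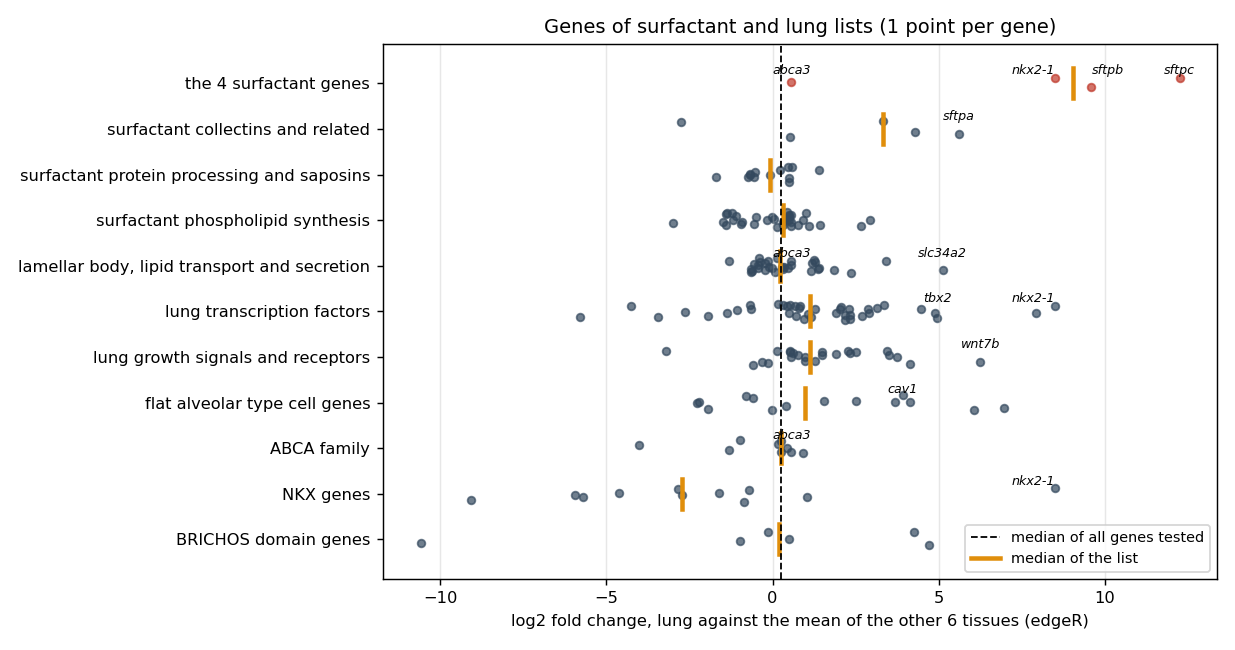
Log2 fold change of lung against the mean of the other 6 tissues (edgeR) for each gene tested in 11 lists, with 1 point per gene, the list median in orange and the median of all genes tested (0.26) as a dashed line. The 4 surfactant genes have a median of 9.04, with abca3 at 0.57, whereas the processing, lipid synthesis and lamellar body lists have medians of -0.08 to 0.30.

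The genes most alike in pattern were taken by Pearson's r of log2(TPM + 1) over the 9 libraries, among 11179 genes with a symbol and at least 10 TPM in some library. With 9 points of which lung is by far the highest for 3 of the genes, these values are descriptions. For sftpc the nearest were exoc3l1 (0.945), fam162b (0.904) and the endothelial receptor gene kdrl (0.896), followed by npr3 and pcdh12. For nkx2-1 they were the endothelial gene esm1 (0.986), s1pr3 (0.983) and dock4 (0.974), followed by gpr182 and snai3.

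For sftpb the nearest were pole (0.883), sftpc (0.870) and zbtb10 (0.856), followed by chic1 and esm1. For abca3 they were lrp10 (0.994), mmp14 (0.991) and rnf11.2 (0.986), followed by dmgdh and tapbpl. None of the 4 had another of them among its 5 nearest, apart from sftpc for sftpb. Between sftpb and sftpc r was 0.870 over 9 libraries and 0.469 over the 8 without lung. Between nkx2-1 and sftpb it was 0.825 and -0.419, and between nkx2-1 and sftpc 0.828 and 0.051. Between abca3 and sftpb r was -0.002.

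The protein-coding genes next to each of the 4 in RefSeq order were read in the same libraries. They were picked by position after the surfactant levels were known. Next to sftpb lie usp39, at 26 TPM in lung and 65.92 in testes, and pax8, at 0.01 TPM in lung. Next to sftpc lie reep4, at 52.86 TPM in lung and 50.33 in male head, and bmp1, at 43.89 TPM in lung and 45.66 in testes. None of these came near the lung level of the surfactant gene beside it.

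Next to nkx2-1 lie mbip, at 140.23 TPM in lung and 698.36 in ovary, and nkx2-8, at 0 in all 9 libraries. The neighbours of abca3 were jpt2 and mcrip2, at 29.61 and 87.71 TPM in lung. Of these, jpt2 was highest in lung and mcrip2 in female heart (127.66).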

How the data were processed

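The authors deposited a table of counts per gene and a table of TPM, each with 1 column per library, and all columns were used. The submitters' processing notes name RSEM 1.3 and deepTools without saying what each did. Aligner, genome build and annotation were not given in the sources used here. The deposited counts are whole numbers and may be rounded estimates, since 1272 entries pair a 0 count with a positive TPM. TPM values are by definition scaled to 1000000 per library. Reads of genes with near-identical copies may have been split between them.

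The entry without a gene name (0.0113% to 1.78% of a library's counts) was left out. RefSeq gene names (UCB_Xtro_10.0) matched 14552 of 15165 symbols, the 4 genes included. The chromosome and start listed there were used only to order protein-coding genes. A check for libraries deposited more than once found none among the head, heart and gut pairs (chi-square per degree of freedom of 101.4, 993.9 and 255.7).

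Contrasts came from 1 model over the 9 libraries with tissue as the factor, tested by quasi-likelihood in edgeR 4.0.16 (TMM, default count filter, 23090 genes) with Benjamini-Hochberg adjusted p under 0.05. Alternatives used DESeq2 1.42.0, limma 3.58.1 (trend) on log2(TPM + 1) or log2(TPM + 0.1), a term for sex, other scaling, no filter, and fits without single libraries. The script was run on simulated data with a dispersion (spread between libraries) of 0.1, below the common value of 0.537 fitted here. That run does not show how the test performs on these data. The SE given with edgeR is the absolute log2 fold change divided by the square root of the F value. It is not a fitted standard error, unlike that of DESeq2. P-values reflect only the spread among these samples, which the labels do not call separate animals. Intervals are 95% and cover counting error only. A floor of 3 counts is 0.0865 to 0.109 CPM.

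The 4 genes and the lists were chosen with earlier results of these data known. Genes named are the 4, the 5 nearest in pattern, called genes of the lists by role, and for several of those lists the 3 with the highest lung TPM. Of the marker lists only single genes are named. Some further list genes were chosen after their values were seen, and 1 gene without the domain was then taken out of the BRICHOS list.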

Additional observations from a re-analysis of the deposited data

Results flagged for a closer look

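The sexes differed in opposite directions in head and heart for sftpc. Female head stood at 3.25 TPM and male head at 1.19, whereas female heart stood at 0.11 TPM and male heart at 45.39. Each value is 1 library, so the difference between the tissues was not tested.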

How the results depend on the processing

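The edgeR test called 0 genes in each of the 4 comparisons, and some other choices gave other counts. With DESeq2 size factors in edgeR, or with no filter on low counts, it again called 0 in each. A reference without GI tract or without the gonads also gave 0 in lung against the others. With a pseudocount of 1, limma called 0 in GI tract against intestine and in lung against GI tract. The fit with a term for sex has 1 residual degree of freedom, against 2 in the main test. For lung against the other 6 tissues DESeq2 called 485, a term for sex 312, limma 10 with a pseudocount of 1 and 15 with 0.1, and fits leaving out a head or heart library 0 to 1724. For GI tract against intestine these were 35 with DESeq2, 64 with the sex term, 19 with limma at 0.1, and 0 in each fit leaving out a library. For lung against GI tract they were 930, 547, 26 and 0 to 152. For head against heart they were 2999, 2670, 2927 (3087 with a pseudocount of 1) and 399 to 9119.

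In lung against the others, the log2 fold change passed the threshold with DESeq2 for sftpb (9.14), sftpc (11.59) and nkx2-1 (7.61), and with the sex term (9.26, 13.40 and 8.71). Leaving out a library gave 9.48 to 9.77, 11.97 to 13.55 and 8.35 to 8.56. On log2(TPM + 1) limma gave 4.44 for nkx2-1, which was 8.49 with edgeR. In GI tract against intestine sftpb (8.45) and sftpc (13.42) passed with DESeq2 and sftpc (14.47) with the sex term, where intestine had no sftpc count and the value is no bound. The sign turned for abca3 in GI tract against intestine: -0.01 with DESeq2 and with its size factors in edgeR, -0.18 and -0.16 with limma at 0.1 and 1, and -0.03 without the female heart (range -0.03 to 0.07). In lung against GI tract abca3 was 0.27 and 0.24 with limma at 0.1 and 1. In lung against the others abca3 was -0.35 against a reference without gonads, and -0.16 without ovary, a fit added after seeing the data. For sftpc in head against heart, fits without a library ranged from -5.30 to 3.69. The cause was not tested. No paired analysis was possible because replicate numbers follow listing order and pair nothing; sex was the only block. Depth limits nkx2-1 outside lung, where it had at most 52 counts.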
